A study of Rattus norvegicus with 18 samples.

Results

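The genes described here make up the core of the nuclear factor κB (NF-κB) pathway: its subunits, its inhibitors, the kinases that release it, and the adaptors and ubiquitin enzymes that carry signals to those kinases. They are 31 genes chosen by name, out of 34873 genes in a count table of rat brain. Each of the 31 names matched 1 row of the table, and all 31 had enough counts to be tested. NF-κB is a family of transcription factors that work as pairs. In resting cells, inhibitors of the IκB family hold the pairs in the cytoplasm. Signals from cytokine and Toll-like receptors activate the IκB kinase complex, the inhibitor is degraded, and the freed pair enters the nucleus. Among the genes it then induces are its own inhibitors, which makes the pathway self-limiting, and some of its own subunits. In brain the pathway is best known from microglia, endothelium and astrocytes responding to injury.

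RNA-seq counts from brain tissue were compared between 3 groups of 6 libraries each. NC rats were wild-type with no treatment given. The wild-type rats of the CO group inhaled carbon monoxide (CO). CLCF1 rats had also inhaled CO and are labelled as a knock-down of Clcf1, a cytokine of the ciliary neurotrophic factor family. The exposure was 40 min at 1000 ppm CO and then 20 min at 3000 ppm, with carboxyhemoglobin above 60%. The submitters also describe lentiviral knock-down in macrophages grown from bone marrow, liposome depletion of a rat's own macrophages, and injection of the grown cells. Which groups underwent depletion and injection is not said. The knock-down may thus not be the sole difference between CLCF1 and CO, nor the gas between CO and NC. Neither the brain region nor the time after exposure is given. The title of the series names NF-κB together with CLCF1 as the pathway in question.

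Libraries held between 15111830 and 20339652 counts. Clcf1 itself had 1 to 7 counts in NC libraries, 80 to 118 in CO and 0 to 3 in CLCF1. Libraries 1 and 2 of each group stood apart from libraries 3 to 6. Over the 3 groups, a gene was without a count in both library 1 and library 2 in 42660 cases, and none was counted in that group's libraries 3 to 6 (0 cases). In single libraries 1 or 2 of the other groups, 2.90% to 8.92% of such genes had counts. Independent libraries would not be expected to show this pattern, so n = 6 may overstate the replication behind the SDs, overlaps and p-values. Nothing in the labels ties the 6 libraries of a group to separate animals, and the p-values rest on a spread that may be technical. Values for libraries 1 and 2 alone are therefore given beside the results. Summed marker levels overlapped between groups, except that the neuronal sum was higher in CO and in CLCF1 than in NC. For 8 neuronal markers the sum was 4060 to 4516 CPM (counts scaled to library size and between libraries) in NC, 5310 to 5646 in CO and 4890 to 5866 in CLCF1. For 8 fibroblast and meningeal markers it was 777 to 1064, 276 to 896 and 634 to 901 CPM. For 12 microglial markers it was 406 to 490, 376 to 490 and 479 to 553 CPM, and for 8 of 10 endothelial markers found it was 192 to 284, 119 to 233 and 175 to 263 CPM. For 11 of 12 neutrophil and monocyte markers found it was 22.4 to 57.0, 18.1 to 35.7 and 26.7 to 46.0 CPM, with Ccr2, Retnlg and Elane at 0 in every library. For 8 T and B cell markers it was 5.34 to 12.6, 4.57 to 8.94 and 7.53 to 11.6 CPM, and for 8 astrocyte markers 5377 to 7430, 4007 to 7599 and 4901 to 6848 CPM. The endothelial marker Cldn5 was at 0 throughout, while the other endothelial markers found had counts in every group. Whether this 0 comes from the tissue or from the count table was not tested. In these tissue samples fewer cells of a type and less RNA per cell cannot be told apart.

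The sequences before the gene starts show how many of these genes carry the binding motif of NF-κB itself. RefSeq gene starts of the rat assembly GRCr8 were matched by symbol for 24 of the 31 genes. The names without a match were Relb, Ikbkb, Ikbke, Birc3, Traf6, Tab1 and Cyld. The window ran from 250 bases before the start to 50 after it, and both strands were read. The κB consensus, a 10-base motif, occurred in 12 of the 24 genes, against 4.18% of all 33469 windows. A looser form that contains it, GGG and CC with any bases at the 5 places between, occurred in 20 of the 24 and in 47.27% of all windows. A match is a string of letters and not a measured binding site. These counts are given because many of the genes below are textbook targets of NF-κB. For Rel, Nfkbia and Nfkbiz, which rose in CO, the 120 bases just before the start are printed 5′ to 3′ in the gene's direction, with matches to the κB consensus in capitals. Their places are chr14:101921939-101922058 (minus strand), chr6:78597073-78597192 (minus) and chr11:58251601-58251720 (plus).
Rel: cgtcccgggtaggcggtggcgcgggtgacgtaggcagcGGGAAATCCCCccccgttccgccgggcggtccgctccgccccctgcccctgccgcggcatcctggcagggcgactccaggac
Nfkbia: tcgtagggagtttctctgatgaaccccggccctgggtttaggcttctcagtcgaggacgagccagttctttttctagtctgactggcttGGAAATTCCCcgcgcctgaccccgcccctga
Nfkbiz: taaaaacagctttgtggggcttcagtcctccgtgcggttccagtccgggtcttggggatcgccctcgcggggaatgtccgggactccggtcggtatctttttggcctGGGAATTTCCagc

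The capitals in Rel hold overlapping matches on both strands, starting 82 and 81 bases before the start. The match of Nfkbia lies 31 bases and that of Nfkbiz 13 bases before the start, the former on the opposite strand. The other genes with a match are shown as 30 bases around it, and set beside the expression values they differ in outcome: Bcl3 and Map3k8 rose in CO, Nfkb1 and Ikbkg were lower in CLCF1 than in CO, and the remaining 5 passed in none of the comparisons. Their places are chr1:88613574-88613603 (minus), chr17:58078165-58078194 (plus), chr2:226805440-226805469 (minus), chrX:157372881-157372910 (plus), chr1:255108344-255108373 (plus), chr1:15544015-15544044 (minus), chr10:39585028-39585057 (minus), chr9:22948017-22948046 (minus) and chr6:136027029-136027058 (plus), in the order of the lines.
Bcl3: tcggcggcagGGGAAGTCCCgcagcccggc
Map3k8: gtgggaggacGGAATTTCCCatcgcggggg
Nfkb1: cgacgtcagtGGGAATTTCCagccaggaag
Ikbkg: agccggaagtGGGGTTTTCCactgctgaga
Nfkb2: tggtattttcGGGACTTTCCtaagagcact
Tnfaip3: AAAGTCCCtcGGAAATCCCCctgtggcgaa
Tnip1: ctccatcatgGGGGAATTCCCCtcctgcct
Nfkbie: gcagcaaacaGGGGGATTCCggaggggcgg
Traf3: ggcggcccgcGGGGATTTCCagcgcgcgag

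Tnfaip3 held matches at 3 places, of which 1 is printed whole and the end of a neighbouring one is seen at the left edge. The Ikbkg window lies on the plus strand of GRCr8, whereas the counted Ikbkg is annotated on the minus strand. Matching was by symbol, and whether both are the same locus was not tested. Of the 7 genes that rose in CO, 6 had a window and 5 of these a match. Of the 24 others, 18 had a window and 7 a match. Nfkbid was the gene that rose in CO with no match in its windows. These letters say nothing on which factor was bound in these samples.

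**Figure D1:**
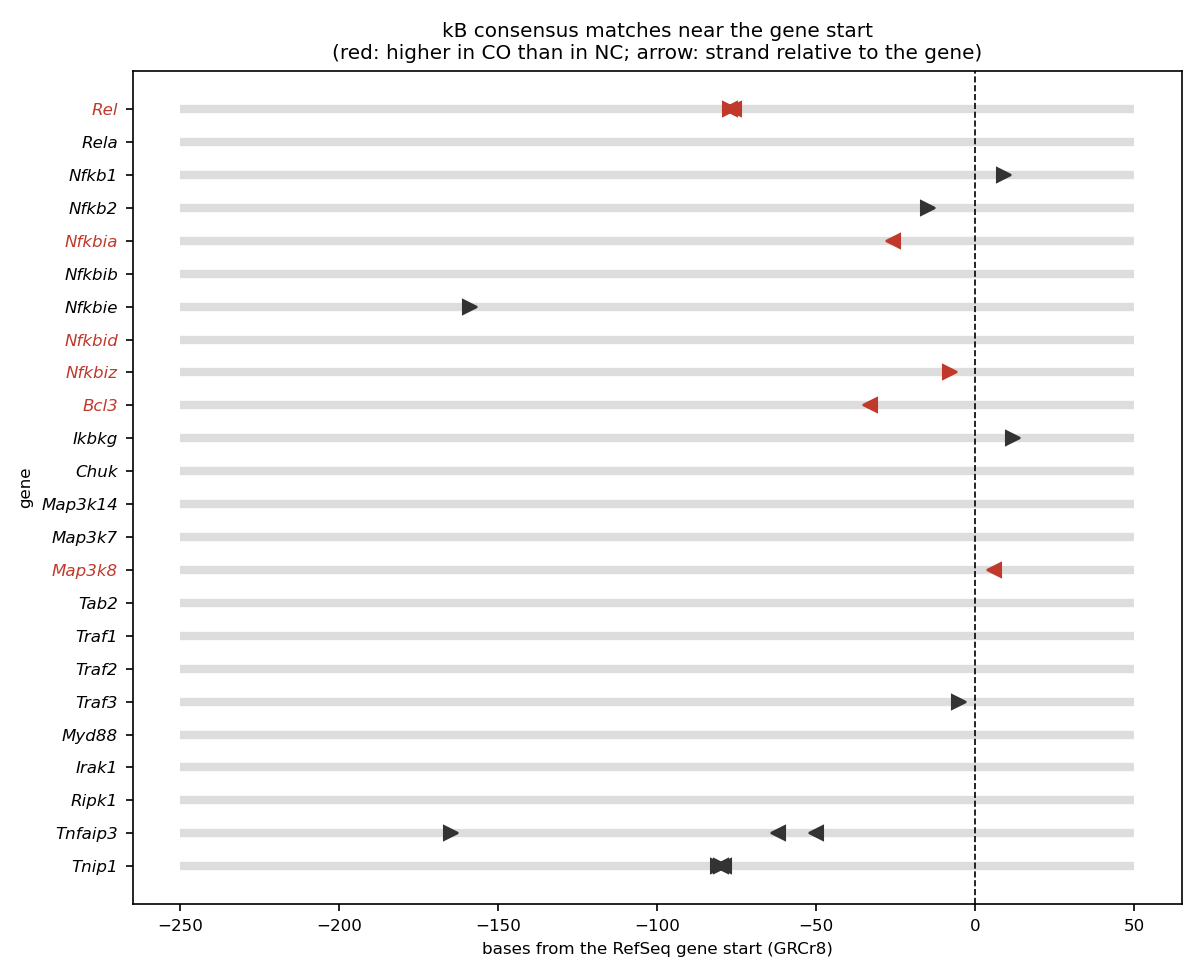
Positions of κB consensus matches from 250 bases before to 50 bases after the RefSeq gene start (x axis, bases, GRCr8) for the 24 genes with a window, 1 row a gene. Arrows give the strand of a match relative to the gene, and red marks the genes that were higher in CO than in NC: 5 of those 6 carry a match.

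At the level of RNA per gene length, the subunit Rela stood highest among the 5 subunits in untreated brain and Rel lowest. Rela encodes p65, the main activating subunit, and had 8.62 ± 1.30 CPM per kilobase (SD, n = 6) in NC. Nfkb1, the gene of p105 and its processed DNA-binding form p50, followed with 6.64 ± 1.26. These 2 levels lay within their combined spread. Nfkb2, the gene of p100 and p52, and Relb, the activating partner of p52, had 2.41 ± 0.457 and 2.17 ± 0.601 CPM per kilobase and also did not separate. Rel, the gene of c-Rel, an activating subunit best known from blood cells, had 0.376 ± 0.231. Among the inhibitors, Nfkbib had 15.11 ± 1.65 CPM per kilobase in NC, Nfkbia 12.2 ± 7.06 and Nfkbie 5.78 ± 1.78, while the nuclear members Nfkbid, Nfkbiz and Bcl3 lay at 0.516, 0.814 and 0.954. In NC the range of Nfkbia, 3.81 to 21.6, enclosed that of Nfkbib, 13.2 to 17.6, so their order was not resolved. In CO, Nfkbia stood above Nfkbib, at 53.6 ± 17.3 and 17.0 ± 2.19 CPM per kilobase. The receptor-proximal kinase Irak1 was the highest of all 31 genes in NC, at 36.6 ± 1.01 CPM per kilobase. The kinase Map3k8 had the lowest mean, at 0.319 ± 0.156, but did not separate from Rel. Map3k8 had 7 to 23 and Rel 4 to 22 counts a library in NC.

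**Figure D2:**
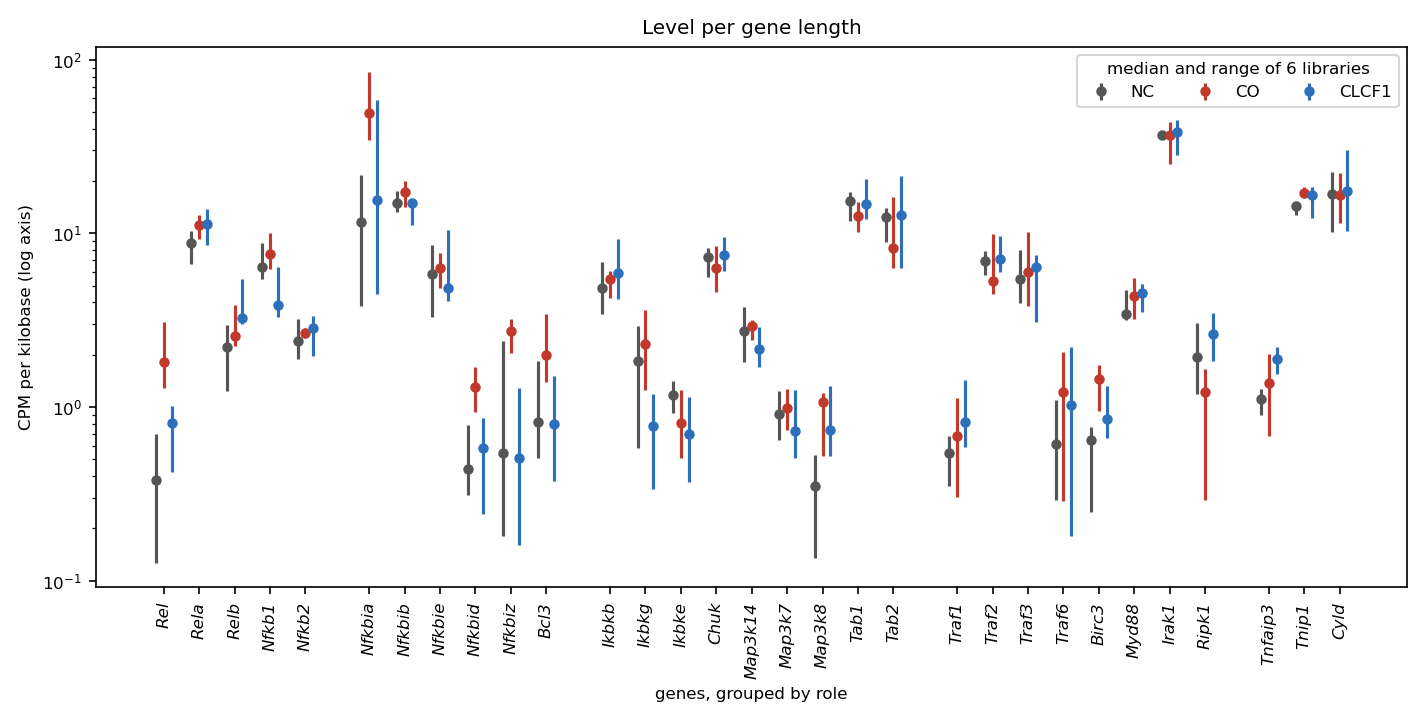
Level of each of the 31 genes in CPM per kilobase of gene length (y axis, log scale), grouped by role. Points are the median and bars the range of the 6 libraries of NC (grey), CO (red) and CLCF1 (blue). Most levels overlap between groups, while Nfkbia, Rel, Nfkbid, Birc3 and Tnip1 in CO lie above their NC range.

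The first comparison, CO with NC, sets rats that inhaled the gas beside untreated rats. The genes that rose in CO were the subunit Rel, 4 members of the IκB family, the kinase Map3k8 and the ubiquitin ligase Birc3. In the quasi-likelihood test of edgeR, with p-values adjusted over all 16581 genes tested (Benjamini-Hochberg), 7 of 31 rose and 0 fell. Of all genes tested, 12.7% passed, 6.32% being higher and 6.4% lower. At an unadjusted p under 0.05 there were 10 of 31, close to the 29.6% of all genes, the 3 more being Tnip1 and Rela, with higher values in CO, and Ripk1, with lower. DESeq2 called 8 higher and 1 lower, adding Tnip1 and Ripk1, against 18.1% of the genes that edgeR tested. The median log2 fold change of the 31 was 0.21, beside 0.01 for all genes tested, and 23 of 31 lay above 0. The 6 libraries of CO and the 6 of NC did not overlap in 5 genes, against 6.36% of all genes. With libraries 1 and 2 alone, 0 of the 31 passed and 3 had an unadjusted p under 0.05, against 3.53% of all genes. In those libraries both CO values lay above both NC values in 14 of the 31, against 17% of all genes, and below in 2, against 17.1%. All 7 genes kept their sign there. Libraries 1 and 2 were part of the fit that chose these genes, so their signs are no separate check. By edgeR, 3 of 8 neuronal markers rose in CO: Snap25, Syn1 and Eno2 (log2 fold changes 0.484, 0.617 and 4.05). In CO, 4 of 8 fibroblast and meningeal markers fell, 1 of 12 microglial markers rose and 2 fell, and 1 of 7 endothelial and 1 of 8 astrocyte markers fell. Their part in these differences was not tested.

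Of the subunits, 1 of 5 rose. Rel (ENSRNOG00000054437, chromosome 14, positions 108491069 to 108509892 in the unnamed build of the count table) had 0.224, 0.675 and 1.24 CPM as its lowest, median and highest value in NC. In CO these values were 2.27, 3.24 and 5.46. Every CO library lay above every NC library, on 4 to 22 counts a library in NC and 36 to 86 in CO. The log2 fold change was 2.39 ± 0.38 (± SE, edgeR adjusted p = 0.0011), and 2.24 in libraries 1 and 2 alone. The other 4 subunits had log2 fold changes from 0.15 to 0.37 and did not pass. Rela came nearest, at 21.1 ± 3.17 CPM in NC and 27.2 ± 3.32 in CO (SD, n = 6), with a log2 fold change of 0.37 ± 0.14 (edgeR adjusted p = 0.0859) and of 0.03 in libraries 1 and 2 alone.

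In the IκB family, 4 of 6 rose, and these were Nfkbia and the 3 nuclear members. Nfkbia encodes IκBα, the inhibitor that NF-κB rapidly resynthesises (ENSRNOG00000007390, chromosome 6, positions 76267228 to 76270457). Its lowest, median and highest levels were 5.96, 18.2 and 33.8 CPM in NC and 53.7, 77.1 and 134 in CO. The groups did not overlap. Its log2 fold change was 2.13 ± 0.52 (edgeR adjusted p = 0.0124). In libraries 1 and 2 it was 1.26, on 24.3 and 27.9 CPM in NC and 53.7 and 72.1 in CO, with an unadjusted p of 0.000506 and an edgeR adjusted p of 0.405.

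Nfkbiz encodes IκBζ, a nuclear cofactor that opens secondary response genes such as Il6 (ENSRNOG00000031163, chromosome 11, positions 47243342 to 47271487). NC libraries had 0.730, 2.19 and 9.70 CPM and CO libraries 8.25, 11.2 and 13.0 as lowest, median and highest. One NC library, number 4, lay inside the CO range. The log2 fold change was 1.71 ± 0.52 (edgeR adjusted p = 0.0367), and 1.84 in libraries 1 and 2. This call was lost, with edgeR adjusted p up to 0.0737, when any 1 was left out among libraries 1, 2, 3, 5 and 6 of NC and 2, 3 and 4 of CO.

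Nfkbid encodes IκBNS, a nuclear regulator studied mainly in lymphocytes and macrophages (ENSRNOG00000025111, chromosome 1, positions 88885937 to 88892615). Its values were 0.565, 0.800 and 1.43 CPM in NC and 1.70, 2.37 and 3.09 in CO. The groups did not overlap, and the log2 fold change was 1.34 ± 0.33 (edgeR adjusted p = 0.0148), or 1.13 in libraries 1 and 2. Bcl3, a nuclear partner of p50 and p52 (ENSRNOG00000043416, chromosome 1, positions 80730499 to 80744831), had 0.953, 1.55 and 3.45 CPM in NC and 2.63, 3.74 and 6.48 in CO. One NC library lay inside the CO range. This was a log2 fold change of 1.29 ± 0.38 (edgeR adjusted p = 0.0336), or 0.95 in libraries 1 and 2. The Bcl3 call was lost, with edgeR adjusted p up to 0.0695, when any 1 was left out among libraries 1, 3, 4 and 6 of NC and 5 and 6 of CO. The cytoplasmic inhibitors Nfkbib (IκBβ) and Nfkbie (IκBε) had log2 fold changes of 0.17 ± 0.12 and 0.15 ± 0.24 and did not pass.

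Of 9 kinases and kinase partners, 1 rose. Map3k8 encodes Tpl2, a kinase that is bound by p105 and is set free when the IκB kinases act on it (ENSRNOG00000016378, chromosome 17, positions 56109549 to 56129919). NC libraries had 0.393, 1.02 and 1.52 CPM and CO libraries 1.51, 3.10 and 3.48. The ranges overlapped slightly, with the lowest CO library just under the highest NC library. The log2 fold change was 1.61 ± 0.34 (edgeR adjusted p = 0.00588), or 1.22 in libraries 1 and 2. The catalytic IκB kinases Ikbkb and Chuk had 0.09 ± 0.20 and -0.15 ± 0.16, the scaffold Ikbkg 0.46 ± 0.36, and the kinase Map3k14 (NIK), which drives the non-canonical branch, 0.03 ± 0.19. Map3k7 (TAK1), which activates the IκB kinases, and its partners Tab1 and Tab2 lay between -0.33 and 0.11, and the IκB kinase relative Ikbke at -0.50 ± 0.29. None of these 8 passed.

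Of 8 adaptors, ligases and receptor-proximal kinases, 1 rose. Birc3 encodes cIAP2, a ubiquitin ligase of the tumour necrosis factor receptor complex (ENSRNOG00000005731, chromosome 8, positions 6048969 to 6076598). It is closely related to Birc2, and reads could be split between them. It had 0.565, 1.46 and 1.74 CPM in NC and 2.15, 3.28 and 3.97 in CO, with no overlap. Its log2 fold change was 1.20 ± 0.27 (edgeR adjusted p = 0.0077), or 0.86 in libraries 1 and 2. The other 7 lay between -0.86 and 0.89. Ripk1, the kinase that relays tumour necrosis factor signals to NF-κB or to cell death, was at the lower end, with 5.40, 8.84 and 13.9 CPM in NC and 1.32, 5.54 and 7.47 in CO (a log2 difference of -0.86 ± 0.31, edgeR adjusted p = 0.0739, DESeq2 adjusted p = 0.0341). Traf6, the ubiquitin ligase downstream of Toll-like and interleukin-1 receptors, was at the upper end, but varied from 0.777 CPM in CO library 1 to 5.65 in CO library 4 (log2 fold change 0.89 ± 0.54, edgeR adjusted p = 0.285). The adaptor Myd88 and the kinase Irak1, on the same route, had 0.21 ± 0.17 and -0.08 ± 0.13.

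Of the 3 brakes that act on ubiquitin, 0 passed by edgeR, and 1, Tnip1, had an unadjusted p under 0.05 and passed by DESeq2. Tnfaip3 encodes A20, a feedback enzyme that NF-κB induces and that carries κB consensus matches at 3 places in its window. It had 2.19, 2.70 and 3.11 CPM in NC and 1.67, 3.35 and 4.91 in CO, which overlapped (log2 fold change 0.30 ± 0.25, edgeR adjusted p = 0.467). Its partner Tnip1 had 36.7, 41.1 and 42.8 CPM in NC and 45.7, 48.6 and 53.2 in CO. These groups did not overlap, but the log2 fold change of 0.28 ± 0.09 did not pass (edgeR adjusted p = 0.0576). The deubiquitinase Cyld had -0.04 ± 0.22.

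**Figure D3:**
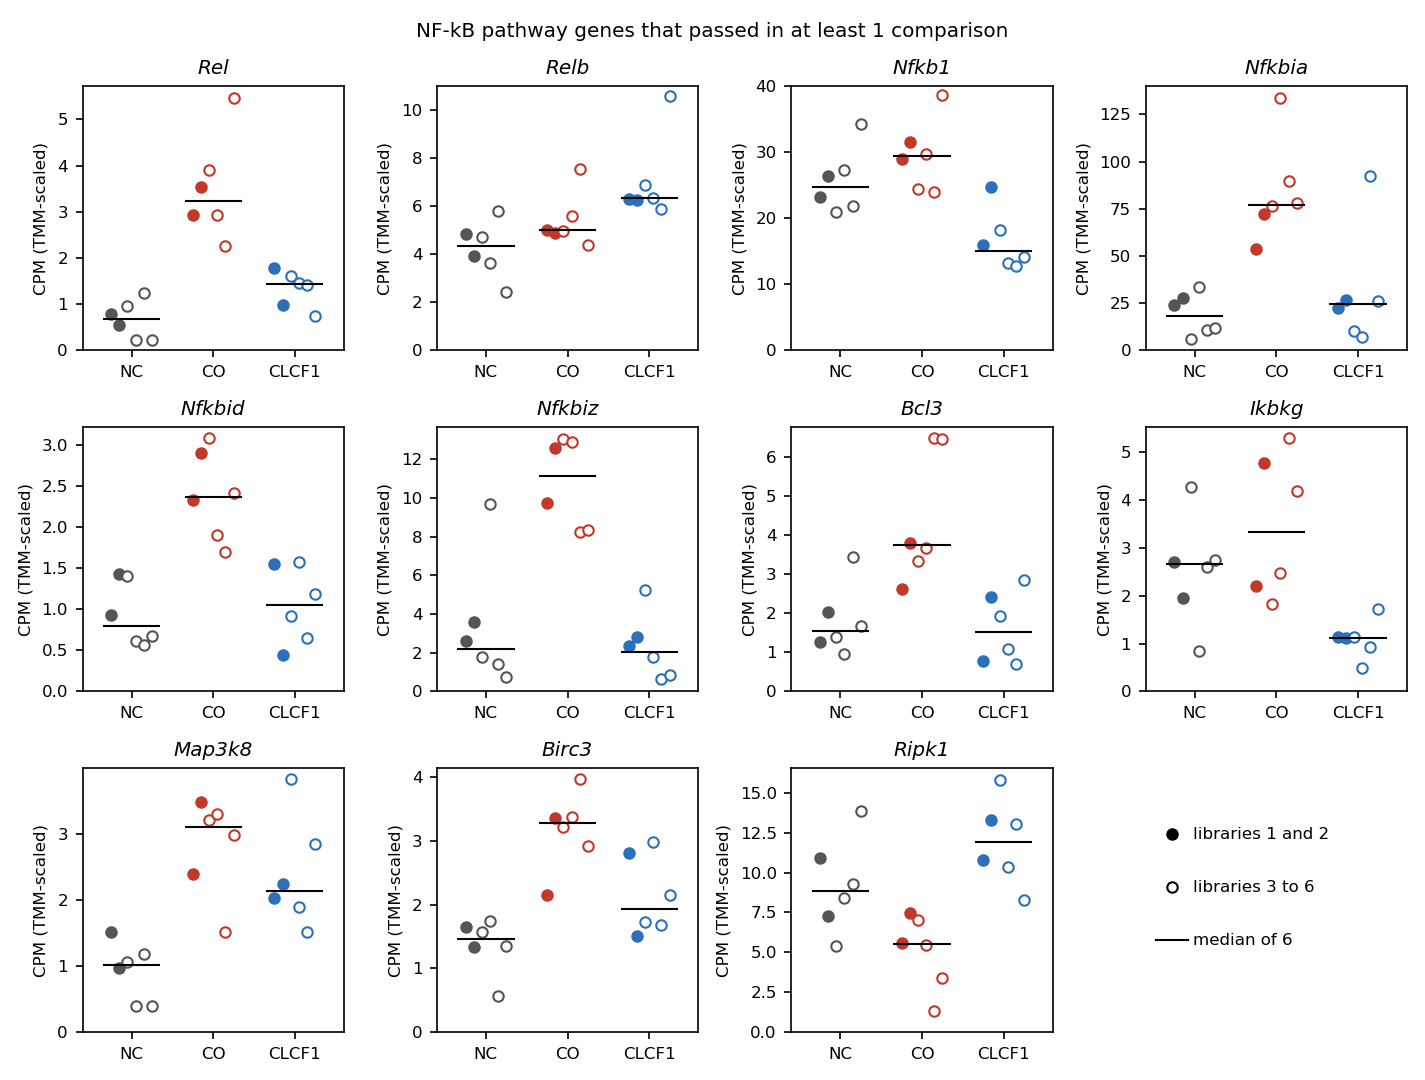
CPM of each library (y axes, linear from 0) in NC (grey), CO (red) and CLCF1 (blue) for the 11 genes that passed in at least 1 comparison. Filled points are libraries 1 and 2, open points libraries 3 to 6, and lines the median of 6. Nfkbia, for example, lies at 5.96 to 33.8 in NC and 53.7 to 134 in CO, while 1 CLCF1 library at 92.3 stands far above the other 5.

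The comparison of CLCF1 with CO sets the knock-down group beside the CO group, both exposed, and the knock-down may not be their sole difference. It uses the same CO libraries as the comparison above, so values of both are given side by side and are not independent. The CLCF1 group had lower levels of the subunits Rel and Nfkb1, of the nuclear IκB members Nfkbiz, Nfkbid and Bcl3 and of the kinase scaffold Ikbkg, and a higher level of Ripk1. By edgeR's test, 6 of 31 were lower, against 8.34% of all genes tested, and 1 was higher, against 8.63% (17% in either direction). At an unadjusted p under 0.05 there were 11 of 31, close to the 32.2% of all genes, and DESeq2 called 8, against 22.5%. The median log2 fold change was -0.17 beside 0.00 for all genes tested. The groups did not overlap in 5 of 31, against 7.12% of all genes. With libraries 1 and 2 alone, 0 passed and 4 had an unadjusted p under 0.05, against 4.86% of all genes. All 7 genes kept their sign, but they were chosen by a fit that held these libraries. Both CLCF1 values lay below both CO values in 10 of the 31 there, against 14% of all genes, and above in 5, against 16.6%. By edgeR, 2 of 8 fibroblast markers tested (Dcn and Lum) and 2 of 12 microglial markers (Gpr34 and Sall1) were higher in CLCF1 than in CO. So were 1 of 4 neutrophil and monocyte markers (S100a9) and 1 of 3 T and B cell markers (Cd8a). Of 7 endothelial markers 1 was higher (Abcb1a), and of 8 neuronal markers 1 was higher (Map2) and 1 lower (Eno2). Of 8 astrocyte markers 0 passed. The part of these cell types in the differences was not tested.

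Rel had 0.753, 1.44 and 1.79 CPM in CLCF1, all under the lowest CO library. This was a log2 fold change of -1.39 ± 0.36 (edgeR adjusted p = 0.0136), beside the 2.39 of CO against NC, and -1.23 in libraries 1 and 2. Nfkb1 (ENSRNOG00000023258, chromosome 2, positions 240773456 to 240866689) was the subunit with the smallest p. It had 24.0, 29.4 and 38.7 CPM in CO and 12.7, 15.0 and 24.7 in CLCF1, where 1 library, number 2, reached into the CO range. The log2 fold change was -0.84 ± 0.17 (edgeR adjusted p = 0.00353), beside 0.20 ± 0.17 in CO against NC, and -0.59 in libraries 1 and 2. The other subunits Rela, Relb and Nfkb2 had -0.01 ± 0.14, 0.38 ± 0.21 and 0.03 ± 0.15 and did not pass.

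Nfkbiz had 0.649, 2.06 and 5.22 CPM in CLCF1, all under the CO libraries, with a log2 fold change of -2.24 ± 0.53 (edgeR adjusted p = 0.00809). Libraries 1 and 2 gave -2.12 with an unadjusted p of 0.000836. Nfkbid had 0.437, 1.05 and 1.57 CPM, also without overlap (log2 fold change -1.18 ± 0.33, edgeR adjusted p = 0.0203, and -1.40 in libraries 1 and 2). Bcl3 had 0.703, 1.51 and 2.85 CPM, with slight overlap (log2 fold change -1.43 ± 0.38, edgeR adjusted p = 0.0162, and -1.02 in libraries 1 and 2).

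Nfkbia did not pass. Its CLCF1 libraries had 6.99, 24.5 and 92.3 CPM, and library 5 alone lay inside the CO range. Its log2 fold change was -1.44 ± 0.50 (edgeR adjusted p = 0.0553). Without CLCF1 library 5 it was -2.18 (edgeR adjusted p = 0.00426), and libraries 1 and 2, at 22.6 and 26.7 CPM, gave -1.36 (edgeR adjusted p = 0.203). It passed by DESeq2 on all 12 libraries (-1.45, adjusted p = 0.0154) and in edgeR with no filter on low counts. Nfkbib and Nfkbie had -0.26 ± 0.12 and -0.17 ± 0.24 and did not pass.

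Ikbkg encodes NEMO, the regulatory scaffold without which the canonical IκB kinase complex cannot form (ENSRNOG00000060936, chromosome X, positions 156257173 to 156270748, minus strand). It had 1.83, 3.33 and 5.29 CPM in CO and 0.488, 1.12 and 1.72 in CLCF1, without overlap, on 9 to 32 counts a library in CLCF1. The log2 fold change was -1.67 ± 0.37 (edgeR adjusted p = 0.00567), and -1.64 in libraries 1 and 2. Ikbkb and Chuk, the catalytic partners of NEMO, had 0.24 ± 0.20 and 0.21 ± 0.16 and did not pass. Map3k8 was 2.39 ± 0.827 CPM in CLCF1 and 2.81 ± 0.741 in CO (SD, n = 6), a log2 fold change of -0.23 ± 0.32 (edgeR adjusted p = 0.665). Ripk1 (ENSRNOG00000017787, chromosome 17, positions 31537591 to 31569904) was the gene that was higher. It had 8.28, 11.9 and 15.8 CPM in CLCF1, above all CO libraries, with a log2 fold change of 1.24 ± 0.31 (edgeR adjusted p = 0.0115), and 0.86 in libraries 1 and 2. Birc3 had -0.56 ± 0.26 and Tnfaip3 0.47 ± 0.25, and neither passed (edgeR adjusted p = 0.144 and 0.209).

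**Figure D4:**
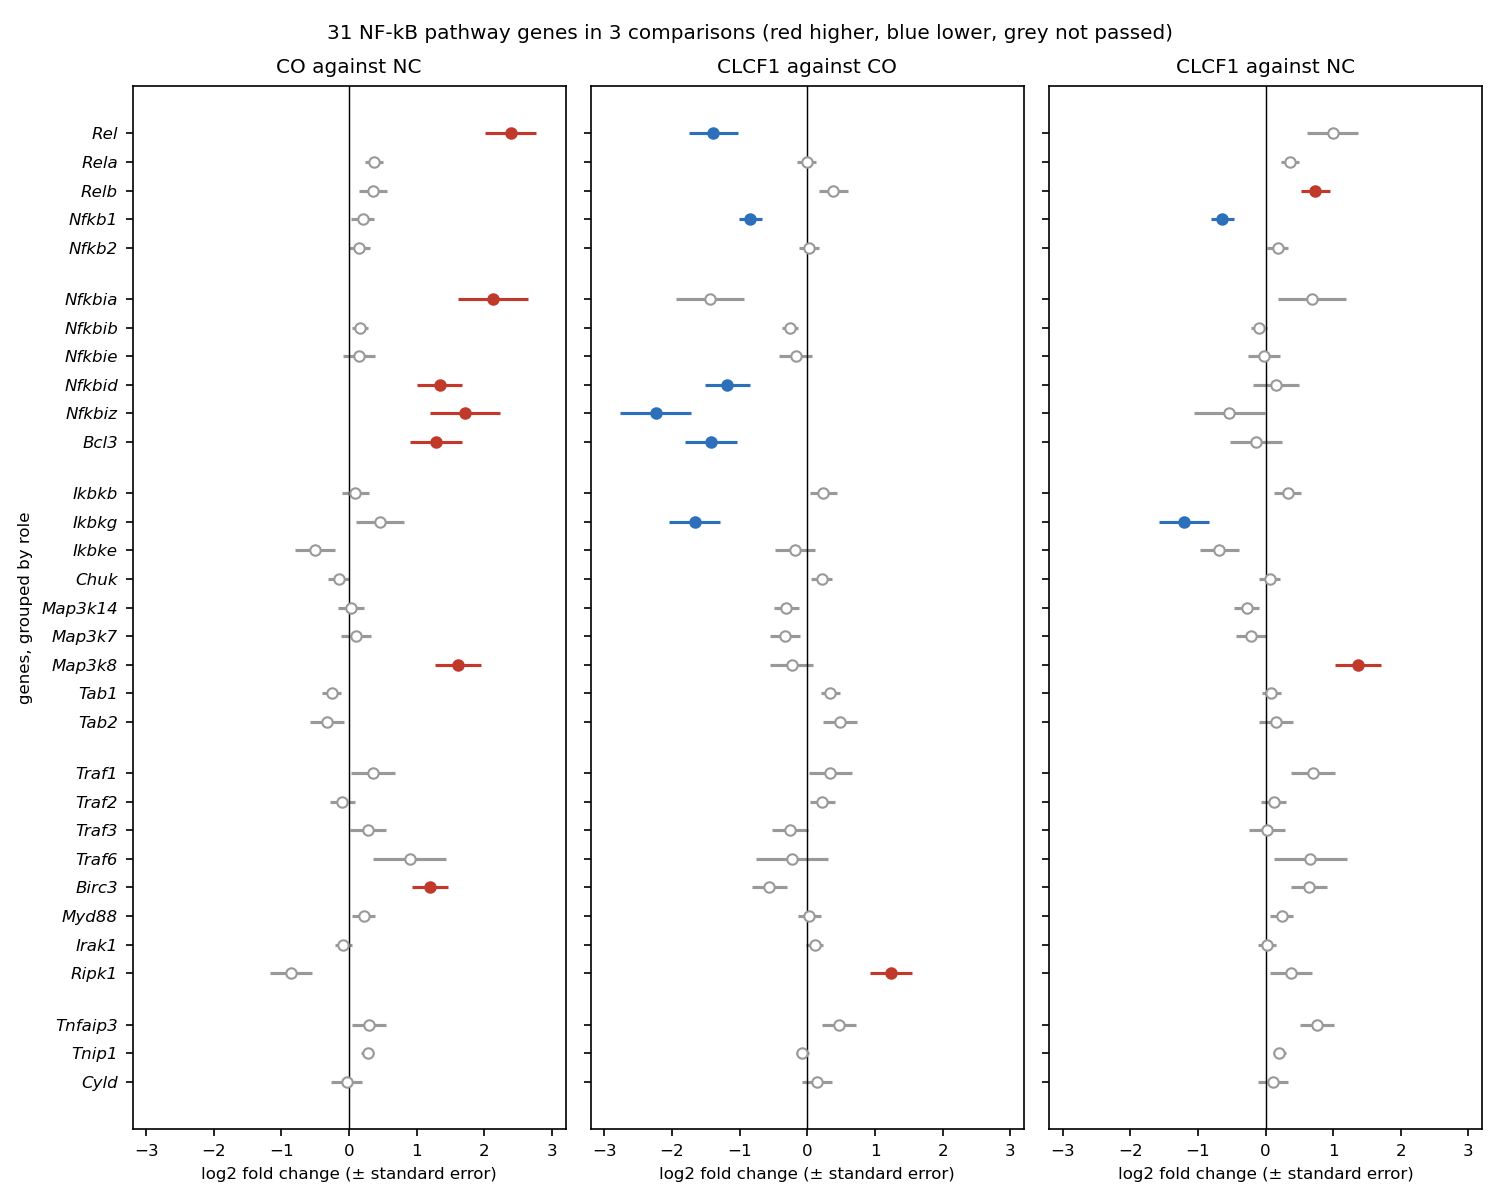
Log2 fold change and standard error (x axes) of all 31 genes, grouped by role, in the 3 comparisons, which share libraries. Filled points passed edgeR's test (red higher, blue lower) and open grey points did not: 7 were higher and 0 lower in CO against NC, 1 higher and 6 lower in CLCF1 against CO, and 2 higher and 2 lower in CLCF1 against NC.

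The last comparison sets the exposed knock-down group beside rats that inhaled no CO. It shares its libraries with both comparisons above. Map3k8 and Relb were higher in CLCF1 and Nfkb1 and Ikbkg lower. By edgeR's test 2 of 31 were higher, against 4.43% of all genes tested, and 2 lower, against 4.84% (9.26% in either direction), shares close to those of all genes. The count of 4 fell to 1 without NC library 6 or CLCF1 library 4 and to 2 without NC library 3 or CLCF1 library 3 or 5, while DESeq2 called 6, adding Rel and Tnfaip3, against 15.3% of the genes that edgeR tested. At an unadjusted p under 0.05 there were 11 of 31, against 25.2%. The groups did not overlap in 2 of 31, against 5.63%, and the median log2 fold change was 0.15 beside 0.01. With libraries 1 and 2 alone, 0 passed by edgeR and 0 had an unadjusted p under 0.05, against 2.49% of all genes. All 4 genes kept their sign, but they were chosen by a fit that held these libraries. Both CLCF1 values lay above both NC values in 9 of the 31 there, against 15.5% of all genes, and below in 2, against 11.7%. By edgeR, 1 of 12 microglial markers tested (C1qa) and 1 of 4 neutrophil and monocyte markers (S100a9) were higher in CLCF1 than in NC. So were 1 of 3 T and B cell markers (Cd8a) and 1 of 8 neuronal markers (Syn1). Of 8 astrocyte markers 2 were lower, Aldh1l1 and Slc1a2. The part of these cell types in the differences from NC was not tested.

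Map3k8 had 1.51, 2.13 and 3.82 CPM in CLCF1, and its lowest library lay at the upper end of NC. Its log2 fold change was 1.37 ± 0.34 (edgeR adjusted p = 0.0167), but 0.75 in libraries 1 and 2. Relb (ENSRNOG00000033235, chromosome 1, positions 80517411 to 80544825) had 2.42, 4.33 and 5.82 CPM in NC and 5.90, 6.33 and 10.6 in CLCF1, without overlap. Its log2 fold change was 0.74 ± 0.21 (edgeR adjusted p = 0.0359), and 0.50 in libraries 1 and 2. The call was lost, with edgeR adjusted p up to 0.0892, when any 1 was left out of NC libraries 2, 3, 4 or 6 or CLCF1 libraries 3, 4 or 6, and in a fit of the 2 groups alone (edgeR adjusted p = 0.0606).

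Nfkb1 was lower by edgeR's test, with a log2 fold change of -0.64 ± 0.17 (adjusted p = 0.0266), and with -0.31 in libraries 1 and 2. The Nfkb1 call was lost without any 1 of NC library 6 or CLCF1 libraries 4, 5 or 6 (edgeR adjusted p up to 0.0581). Ikbkg had 0.841, 2.66 and 4.27 CPM in NC, which overlapped with CLCF1, and a log2 fold change of -1.21 ± 0.37 (edgeR adjusted p = 0.046). That call was lost without any 1 of 9 of the 12 libraries (edgeR adjusted p up to 0.101), the exceptions being NC libraries 2 and 4 and CLCF1 library 6, and in a fit of the 2 groups alone. In the IκB family 0 of 6 passed by edgeR or DESeq2 and 0 had an unadjusted p under 0.05, with log2 fold changes from -0.53 to 0.69. Tnfaip3 did not pass either, at 0.76 ± 0.25 (edgeR adjusted p = 0.0624), although its CLCF1 libraries, at 3.76, 4.61 and 5.42 CPM, all lay above NC. Rel had 0.99 ± 0.38 (edgeR adjusted p = 0.104).

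The other genes of the pathway were read from 3 further lists. The first held 24 ligands and receptors that feed NF-κB, of which 16 were tested. In CO against NC 2 of them rose, 4 fell and 10 did not pass, beside 12.7% of all genes that passed. Of these calls, Tnfrsf1b (higher) was lost without any 1 of 9 of the 12 libraries and Tlr2 (lower) without any 1 of 8 (edgeR adjusted p up to 0.101 for both). Il1b, the gene of interleukin-1β, rose from a mean of 0.216 to 4.57 CPM (edgeR adjusted p = 0.000949). The receptors that fell sense microbial products or CD40 ligand. Tlr3, the receptor for double-stranded RNA, had 7.17 CPM in NC and 1.27 in CO (a log2 difference of -2.49 ± 0.34, edgeR adjusted p = 0.000533). Cd40 fell from 2.80 to 1.11 CPM (-1.33 ± 0.26, edgeR adjusted p = 0.00392), and Tlr4, the lipopolysaccharide receptor, from 3.18 to 0.807 CPM (-1.97 ± 0.48, edgeR adjusted p = 0.0136). In libraries 1 and 2 these 3 log2 fold changes were -1.82, -1.04 and -1.60. In CLCF1 against CO, 5 were higher and 2 lower, beside 17% of all genes. The higher ones included Tlr3 (2.28 ± 0.34), Cd40 (1.51 ± 0.26) and the receptor Tnfrsf1a, at 31.3 CPM against 16.1 (0.96 ± 0.19, edgeR adjusted p = 0.00256). Libraries 1 and 2 gave 1.68, 1.12 and 0.44 for these 3. The call of Tlr4 (higher) was lost without CLCF1 library 2 or 6 (edgeR adjusted p up to 0.0537). Il1b was lower, at 0.0298 CPM against 4.57 (edgeR adjusted p = 0.000147). In CLCF1 against NC, Tnfrsf1a was higher (0.64 ± 0.18, edgeR adjusted p = 0.0355) and 15 did not pass, beside 9.26% of all genes that passed. The Tnfrsf1a call in CLCF1 against NC was lost without any 1 of 7 of the 12 libraries (edgeR adjusted p up to 0.0802). In libraries 1 and 2, 0 of the 16 passed by edgeR in any comparison, and 3, 3 and 0 had an unadjusted p under 0.05. The shares of all genes with such a p there were 3.53%, 4.86% and 2.49%.

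The second list held 41 further adaptors, ligases and regulators, of which 37 were tested. In CO against NC 5 rose, 2 fell and 30 did not pass, beside 12.7% of all genes that passed. Of these calls, Rbck1 (higher) was lost without any 1 of 5 of the 12 libraries and Irak4 (lower) without NC library 5 (edgeR adjusted p up to 0.0615 and 0.0546). Irak2, the kinase that sustains Toll-like and interleukin-1 receptor signals, was at 5.44 CPM in NC and 15.0 in CO (a log2 difference of 1.46 ± 0.22, edgeR adjusted p = 0.00107), and 1.07 in libraries 1 and 2. Peli1, a ubiquitin ligase of the same route, rose from 32.6 to 65.2 CPM (1.001 ± 0.18, edgeR adjusted p = 0.00204), and Otulin, which removes linear ubiquitin chains, from 6.57 to 11.6 (0.82 ± 0.15, edgeR adjusted p = 0.0029). The death-domain adaptor Fadd was at 1.23 CPM in NC and 0.0816 in CO, a level of very few counts (edgeR adjusted p = 0.00108). Its log2 fold change was -3.78 ± 0.59. It was -2.44 in libraries 1 and 2 (edgeR unadjusted p = 0.0698) and -5.11 in libraries 3 to 6. In CLCF1 against CO, 2 were higher and 4 lower, 6 of 37 and so no more than the 17% of all genes that passed. Peli1 was lower by 0.83 ± 0.18 on the log2 scale, and Tbk1, a relative of the IκB kinases, by 0.58 ± 0.12 (edgeR adjusted p = 0.00459 and 0.00486). Irak4, the kinase that first joins Myd88, was at 2.76 CPM in CO and 7.12 in CLCF1 (1.36 ± 0.24, edgeR adjusted p = 0.00131), and Fadd at 0.513 CPM in CLCF1. In CLCF1 against NC, Otulin was higher (0.58 ± 0.15, edgeR adjusted p = 0.0226) and 36 did not pass, beside 9.26% of all genes that passed. That Otulin call was lost when any 1 was left out of NC libraries 3 or 5 or CLCF1 library 4 (edgeR adjusted p up to 0.0624). In libraries 1 and 2, 0 of the 37 passed by edgeR in any comparison, and 3, 2 and 0 had an unadjusted p under 0.05. Such a p was found there for 3.53%, 4.86% and 2.49% of all genes.

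The third list held 25 genes known as NF-κB targets outside the 31, of which 18 were tested. In CO against NC 6 rose, 1 fell and 11 did not pass, with a median log2 fold change of 0.54, beside 12.7% of all genes that passed. The gene that fell, Csf1, lost its call without any 1 of 9 of the 12 libraries (edgeR adjusted p up to 0.0775). Of those that rose, Sod2 and Cd83 each lost it without any 1 of 7 (up to 0.0865 and 0.0736) and Cxcl2 without NC library 4 or CO library 3 (up to 0.054). Ccl2, the chemokine that draws monocytes, rose from 0.0926 to 4.45 CPM (5.59 ± 0.63, edgeR adjusted p = 0.000118), and Icam1, the adhesion molecule of activated endothelium, from 7.40 to 17.4 (1.23 ± 0.32, edgeR adjusted p = 0.0182). Zc3h12a, which degrades cytokine messenger RNAs, rose from 0.721 to 2.01 CPM (1.48 ± 0.40, edgeR adjusted p = 0.022). In libraries 1 and 2 these log2 fold changes were 3.73, 0.72 and 1.33. In CLCF1 against CO, 1 was higher, 5 lower and 12 did not pass, with a median of -0.20, beside 17% of all genes that passed. Gadd45b, a stress gene that NF-κB uses to curb JNK signalling, was at 35.97 CPM in CO and 8.83 in CLCF1 (-2.03 ± 0.39, edgeR adjusted p = 0.00259). Cd83 was at 59.2 and 22.2 CPM (-1.42 ± 0.26, edgeR adjusted p = 0.00171), and the chemokine Cxcl2 at 1.32 CPM in CO with no count in CLCF1. Lcn2, an acute-phase iron carrier, was the 1 higher, at 1.04 and 3.47 CPM (1.73 ± 0.46, edgeR adjusted p = 0.0151). In CLCF1 against NC 3 were higher and 2 lower, beside 9.26% of all genes that passed, with Ccl2 at 1.31 CPM in CLCF1 (3.83 ± 0.63) and Lcn2 (2.88 ± 0.49) among the higher. Of the others, Gadd45b (lower) lost its call without any 1 of NC libraries 4 or 6 or CLCF1 libraries 3, 5 or 6, and Mmp9 (higher) without any 1 of NC libraries 1 or 5 or CLCF1 libraries 5 or 6 (edgeR adjusted p up to 0.0603 and 0.0591). In libraries 1 and 2, 0 of the 18 passed by edgeR in any comparison, and 3, 4 and 3 had an unadjusted p under 0.05. For all genes these shares were 3.53%, 4.86% and 2.49%.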

How the data were processed

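RNA-seq was done on 18 libraries of rat brain, grouped by their titles. The authors deposited raw, whole-number counts per gene with no normalization, as the values of the table show. For the aligner, counter, strandedness and build, the answer is not given in the sources used here. Builds that the submitters' processing notes name are GRCm38 and mm10, of mouse, while the table carries rat gene IDs, so its coordinates are printed with no build. Sequences are from RefSeq, assembly GRCr8.

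The test was that of edgeR 4.0.16 (R 4.3.3): TMM scaling, filterByExpr defaults (16581 of 34873 genes kept), 1 robust quasi-likelihood fit of all 18 libraries, and Benjamini-Hochberg adjustment over all genes tested with a threshold of 0.05. Standard errors are the log2 fold change over the root of F. CPM are TMM-scaled, and gene lengths are those of the table. Tests were checked on simulated counts. Alternatives were DESeq2 1.42.0, other scalings, no filter, fits of 2 groups, the library number as a block, subsets of libraries and each library left out. The members and lists were chosen with earlier results of these data known. Members that passed in any comparison are described in full, the others by ranges, and from each further list up to 4 passing genes with the smallest p could be named.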

Additional observations from a re-analysis of the deposited data

Results flagged for a closer look

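In 93 gene and group combinations (31 genes in 3 groups), 6 had a highest or lowest library farther from its nearest neighbour than expected for 6 values, where chance flags about 1 in 20. Nfkbia stood at 92.3 CPM in CLCF1 library 5, next to 26.7. Nfkbiz stood at 9.70 CPM in NC library 4, next to 3.56. Relb stood at 10.6 CPM in CLCF1 library 6 (next 6.88), Nfkbie at 16.8 CPM in CLCF1 library 3 (next 8.99), and Birc3 at 0.565 CPM in NC library 5 (next 1.34). Tnip1 stood at 35.3 CPM in CLCF1 library 6, below the next value of 47.4. All 6 lie in libraries 3 to 6.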

How the results depend on the processing

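Of the 18 member results that passed, 0 reversed under any alternative run, and 0 lost their call under DESeq2's test, DESeq2 size factors, total counts or no filter on low counts. Of these 18, 2 lost it in fits of 2 groups, 13 in libraries 3 to 6 alone and 18 in libraries 1 and 2 alone, where all 18 kept their sign and 16 were smaller than in libraries 3 to 6. Both subsets were part of the fit that chose the 18 results, so a kept sign is no separate check. Leaving out 1 library ended a call in 34 of 216 cases. In the comparisons of CO with NC, of CLCF1 with CO and of CLCF1 with NC, members that passed numbered 0, 0 and 0 in libraries 1 and 2 alone and 3, 1 and 1 in libraries 3 to 6, and with 1 library left out 5 to 7, 7 to 8 and 1 to 3. All genes that passed numbered 2110, 2814 and 1536. With no filter they were 4291, 5645 and 4292, by DESeq2 4081, 5254 and 3844, in libraries 1 and 2 alone 4, 8 and 2, and in libraries 3 to 6 alone 918, 1436 and 736. With 1 library left out they ran from 1672 to 2137, 2427 to 3033 and 1219 to 1692. Subsets hold fewer samples, and other causes were not tested. Deviations of libraries with the same number correlated weakly between groups (-0.0189 to 0.194, 1 of 18 over 0.1). For libraries 1 and 2 the correlations ran from 0.0316 to 0.194, and for libraries 3 to 6 from -0.0189 to 0.0266. Such weak correlations cannot exclude pairing by number. With the library number as a block, 7, 8 and 3 members and 1944, 2787 and 1477 genes passed, with Nfkbia gained in CLCF1 against CO and Relb lost in CLCF1 against NC (adjusted p = 0.0571). Genes under about 20 counts a library, such as Rel in NC, carry wide counting error.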
